A study of Mus musculus with 8 samples.

Results

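The HCN pacemaker channel genes Hcn2, Hcn3 and Hcn4 and the gene of their auxiliary subunit TRIP8b, Pex5l, were examined in mouse hippocampus. These 4 genes were found by symbol among the 55188 genes of each table, and all 32 of their values carried the status OK. The 8 libraries came from C57BL/6 mice before fear conditioning (FC): the units WT1 and WT2, labelled wild type, and KO1 and KO2, labelled KO, with 2 technical replicates each. The KO label names Pyk2, the calcium-dependent kinase that Ptk2b encodes, and the design asks how the hippocampal transcriptome differs at baseline. All samples are described as transgenic mice. Not given in the sources used here were the allele, the age and the number of mice behind each number. Each number was treated as 1 animal (n = 2 per group) and the spread behind each p-value is that between these units, which may be technical.

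HCN channels open when the membrane is hyperpolarised and carry a mixed sodium and potassium current, called Ih, that is increased by cAMP binding to a cytoplasmic domain. In hippocampal neurons Ih sets the resting potential and shortens synaptic responses in dendrites. TRIP8b binds the channels at their C-terminal end and at the cyclic nucleotide-binding domain. Depending on its splice form it raises or lowers the number of channels at the surface, and it opposes the action of cAMP.

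The end of each channel's coding sequence is shown because the C-terminal tripeptide is the docking point of TRIP8b. The last 30 coding bases before the stop codon follow, 5′ to 3′ on the gene's own strand, from GENCODE M21 transcripts. Capitals mark the last 3 codons.
Hcn2 (chr10:79735508-79735537, plus strand): tctgcgcgctcgcgcctctctTCCAACTTG
Hcn4 (chr9:58860731-58860760, plus strand): ccagtacgctccaaactgccgTCTAATTTA
Hcn3 (chr3:89147602-89147631, minus strand): cccagaggtccccaaatttctGCCAACATG
Counted from 1 at the first capital, Hcn2 and Hcn4 differ by C3T, C6T and G9A, each in the last base of a codon, and all 3 codons translate to the same residues. Hcn2 and Hcn3 differ by T1G and T7A, and 1 of the 3 codons translates to the same residue. Over the whole coding sequence, identity in aligned bases was 79.0% between Hcn2 and Hcn4, 77.7% between Hcn3 and Hcn4 and 74.7% between Hcn2 and Hcn3. The coding sequences hold 863, 779 and 1201 codons for Hcn2, Hcn3 and Hcn4.

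Pex5l has 9 annotated coding transcripts of 344 to 650 codons, which share 1 end and have 4 different starts. The first 30 coding bases of 3 of these starts are shown because TRIP8b forms differ at this end while the tables hold 1 value per gene. Capitals mark the start codon.
Start of 6 transcripts (chr3:33082039-33082068, minus strand): ATGtctgacagtgaaatggatggaaggact
Start of Pex5l-206 (first base at 33142869, across an intron): ATGtaccagggacacatgcagctggtgaat
Start of Pex5l-204 (first base at 33081993, across an intron): ATGcagatgagctacttgaaaagtaaagaa
The level of Pex5l given here sums over these forms, so a change in their proportions cannot be seen in it.

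Coordinates are those of mm10, as the tables and GENCODE M21 both give them. Hcn2 (ENSMUSG00000020331) lies at chr10:79716634-79736108 on the plus strand and Hcn4 (ENSMUSG00000032338) at chr9:58823412-58863175 on the plus strand. Neither overlaps another annotated gene. Hcn3 (ENSMUSG00000028051, chr3:89146074-89160196, minus strand) shares 711 bases at its 3′ end with Pklr, which stood at 0.0185 to 0.120 FPKM in the 4 animals. Pex5l (ENSMUSG00000027674, chr3:32949408-33143247, minus strand) spans 193840 bases and overlaps 5 other annotated genes, of which the highest, Gm37459, stood at 1.02 to 1.18 FPKM. All 4 are protein-coding genes, and no strand setting is given in the sources used here, so reads of overlapping genes cannot be told apart.

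The libraries listed 26483 to 27873 genes above 0, with summed FPKM of 489153 to 506251. FPKM divide a gene's fragments by its transcript length and by the library total, so levels can be compared between genes per length. Of the fixed hippocampal markers, all 10 of CA1 and subiculum, all 10 of CA2 and CA3 and all 10 of dentate granule cells were above the minimum for testing. The targeted gene Ptk2b was not lower in the KO-labelled animals: its mean was 217 ± 21.0 FPKM for WT against 273 ± 6.33 FPKM for the KO-labelled animals (SD, n = 2 each). The difference was 0.34 on the log2(FPKM + 1) scale (SE 0.07, adjusted p = 0.158 in limma). A value summed over the gene does not show loss of an exon or of the protein, so directions below are those of the labels. Choroid plexus markers differed most among the fixed lists: all 12 were lower in the KO-labelled animals, with summed levels of 4242 and 7498 FPKM for WT and 288 and 1236 FPKM in the KO-labelled animals. Blood markers were lower as well, 5 of 5, and no marker of either list was at 0 in any animal. Of all genes tested, 42% had a difference above 0. An adjusted p under 0.05 in limma was reached by 0 of 12 choroid plexus markers and 2 of 5 blood markers, against 0.054% of all genes.

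Pex5l was the most abundant of the 4 genes at 69.1 FPKM over the 4 animals, followed by Hcn2 at 38.4, Hcn3 at 3.06 and Hcn4 at 0.530 FPKM. In this order no 2 neighbours overlapped in any of the 8 libraries. Among the 16667 genes with at least 0.5 FPKM in 2 animals, Pex5l was at percentile 93.9 of mean level, Hcn2 at 87.9, Hcn3 at 31.9 and Hcn4 at 2.24. All 4 members passed that minimum, Hcn4 by a narrow margin.

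**Figure D1:**
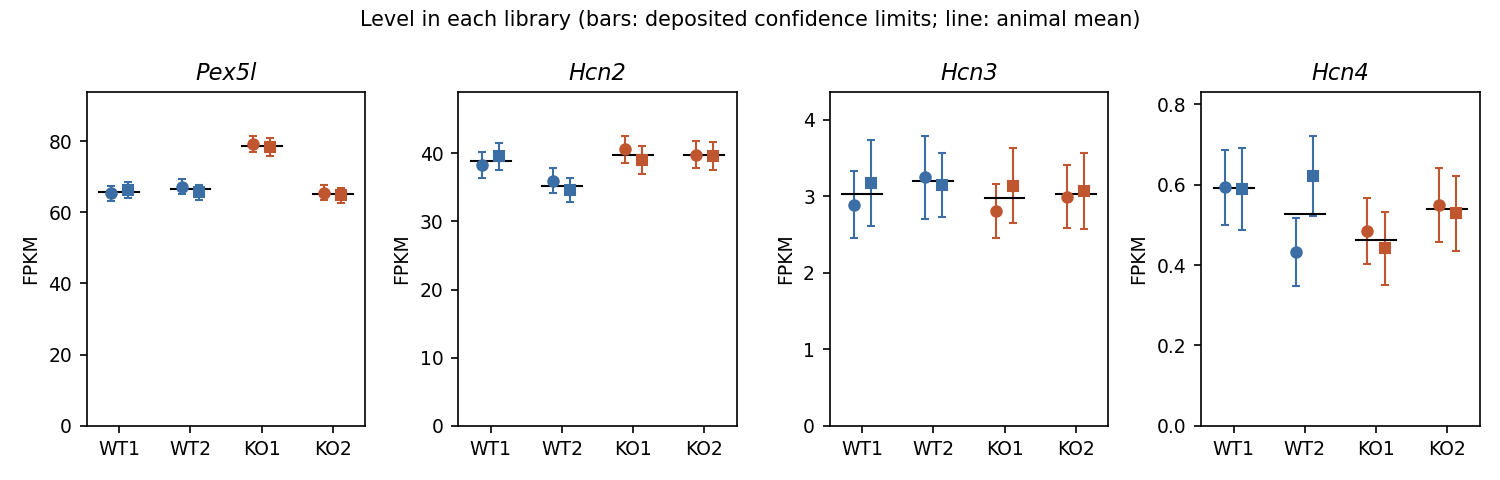
FPKM of Pex5l, Hcn2, Hcn3 and Hcn4 (vertical axes from 0, 1 panel per gene) in the animals WT1, WT2, KO1 and KO2, with circles for technical replicate 1, squares for technical replicate 2, bars for the deposited confidence limits and lines for animal means. Pex5l stands at 78.8 FPKM in KO1 and at 65.2 to 66.5 FPKM in the other animals, while the groups lie close together for the channel genes.

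Pex5l, the TRIP8b gene, gave 65.4 and 66.3 FPKM in the libraries of WT1 and 67.3 and 65.7 FPKM in those of WT2. The libraries of KO1 gave 79.2 and 78.3 FPKM, and those of KO2 gave 65.5 and 64.8 FPKM. KO1 was therefore high in both of its libraries, whereas KO2 lay just below both WT animals, so the groups overlapped. Technical replicates differed by 1.01% to 2.32% of their mean, and KO1 was 19.7% above the mean of the other 3 animals, which spanned 2.04%. The lower confidence limits deposited for KO1, 76.9 and 75.8 FPKM, were above the highest upper limit of any other library, 69.5 FPKM; these limits do not cover the spread between animals.

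As group means, Pex5l stood at 66.2 ± 0.442 FPKM for WT and 72.0 ± 9.63 FPKM in the KO-labelled animals (SD, n = 2 each). The difference was 0.11 on the log2(FPKM + 1) scale, with an SE of 0.09, a 95% interval of -0.12 to 0.35 and an adjusted p of 0.602 in limma. The exact two-sided permutation test over animals gave p = 1, where 2 against 2 animals cannot go below 0.33. The direction rested on KO1: without it the difference was -0.02, and without KO2 it was 0.25 with an adjusted p of 0.113 in limma, not past the threshold of 0.05.

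Within the KO-labelled pair, Pex5l was higher in KO1 by 0.27 on the log2(FPKM + 1) scale, and 2.92% of the 16667 genes had a larger excess in KO1. Counted in either direction, 9.56% of the genes had a larger difference. The corresponding differences were 0.0041 for Hcn2, -0.02 for Hcn3 and -0.07 for Hcn4. Of the 4 genes, Pex5l had the largest difference between these animals; this describes 1 pair of animals, with no test.

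The genes whose profile over the 8 libraries was most like that of Pex5l were sought among 9205 genes of at least 5 FPKM, by the root mean square difference of centred log2(FPKM + 1). The nearest was Vsnl1, the gene of the neuronal calcium sensor visinin-like 1, at a distance of 0.015 where Pex5l itself varied by 0.11. Vsnl1 stood at 217 and 215 FPKM in WT1 and WT2, at 258 FPKM in KO1 and at 215 FPKM in KO2. Fam107a, an actin-associated protein gene, was second at a distance of 0.026, with 126 and 122 FPKM in WT, 147 FPKM in KO1 and 122 FPKM in KO2. Plpp6, a lipid phosphatase gene, followed at 0.028, with 18.6 and 18.6 FPKM in WT, 21.3 FPKM in KO1 and 18.2 FPKM in KO2. Each of the 3 shared the high value of KO1, and such likeness over 4 animals is a description only.

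Summed levels of some marker lists were also highest in KO1. CA1 and subiculum markers were above KO2 in 8 of 10 genes, with a median of 0.25 for KO1 minus KO2 on the log2(FPKM + 1) scale and summed levels of 211 and 217 FPKM in WT, 235 FPKM in KO1 and 217 FPKM in KO2. Without Wfs1 and Dcn, the 2 genes that varied most, KO1 still had the highest sum, 160 FPKM against 142 to 147 FPKM. Neocortex markers were above KO2 in 7 of 8 tested genes, with a median of 0.25 and summed levels of 59.8 and 70.3 FPKM in WT, 88.5 FPKM in KO1 and 68.8 FPKM in KO2. That excess rested on Tshz2 and Lamp5: without them the sums were 33.2 and 42.2 FPKM in WT, 41.5 FPKM in KO1 and 38.2 FPKM in KO2. Dentate granule markers were above KO2 in 3 of 10 genes, with a median of -0.09, and CA2 and CA3 markers in 3 of 10, with a median of -0.07. Oligodendrocyte markers, summing to 3075 and 2885 FPKM in WT1 and WT2, 3400 FPKM in KO1 and 2984 FPKM in KO2, were likewise highest in KO1, above KO2 in 9 of 12 genes. Interneuron markers were above KO2 in 5 of 14 rows, with a median of -0.02. Their summed level was also highest in KO1: 980 and 956 FPKM in WT1 and WT2, 1058 FPKM in KO1 and 1003 FPKM in KO2. This rested on Cck and Npy: without both, sums were 536 and 542 FPKM in WT, 525 FPKM in KO1 and 529 FPKM in KO2. Over all genes the median of KO1 minus KO2 was -0.02. No CA1, neocortex or oligodendrocyte marker in the tables was at 0 in any animal, and the part of these markers in the level of Pex5l was not tested. In bulk tissue, more cells of a type and more RNA per cell cannot be told apart.

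**Figure D2:**
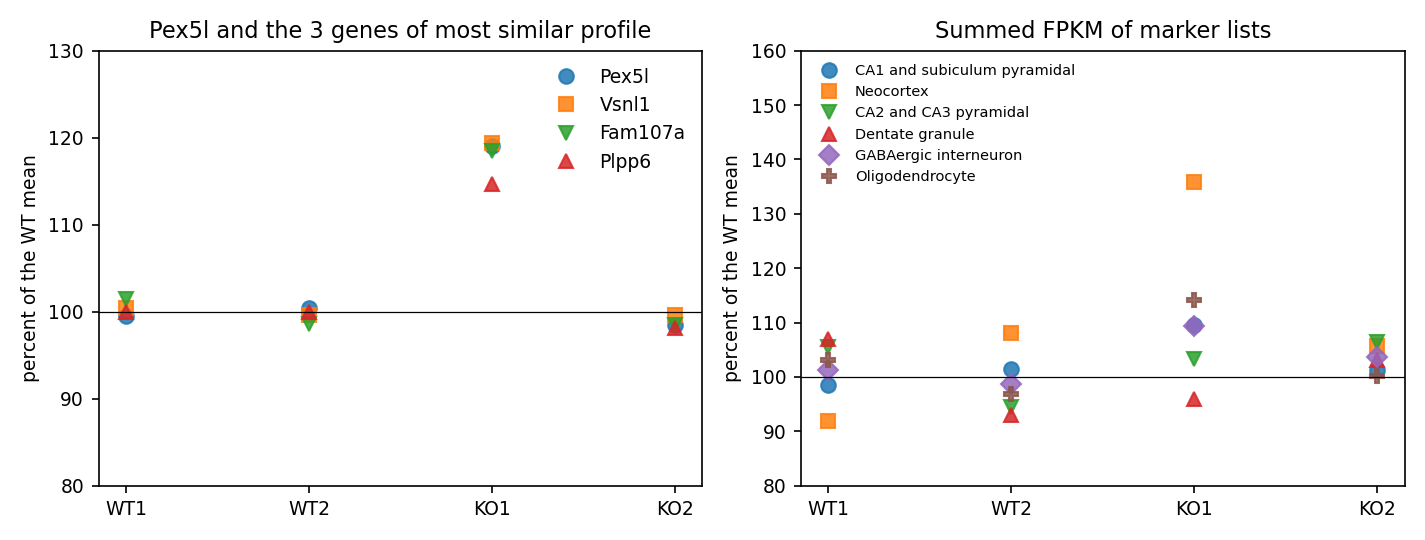
Left, Pex5l and the 3 genes of most similar profile in each animal as a percent of their WT mean; right, summed FPKM of 6 marker lists in each animal as a percent of their WT mean (vertical axes do not start at 0). Pex5l, Vsnl1, Fam107a and Plpp6 are high in KO1, as is the neocortex sum at 88.5 FPKM against 59.8 to 70.3 FPKM in the other animals, through Tshz2 and Lamp5.

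Hcn2, a main cAMP-sensitive channel subunit of brain, gave 38.2 and 39.6 FPKM for WT1, 36.0 and 34.6 FPKM for WT2, 40.6 and 39.0 FPKM in KO1 and 39.8 and 39.6 FPKM in KO2. WT2 was low in both libraries and the other 3 animals were close together. By animal the groups did not overlap, but the second library of WT1 lay within the range of the libraries labelled KO. The means were 37.1 ± 2.57 FPKM for WT and 39.8 ± 0.0809 FPKM in the KO-labelled animals (SD, n = 2 each), 7.23% apart. This is a difference of 0.10 on the log2(FPKM + 1) scale (SE 0.06, 95% interval -0.05 to 0.25, adjusted p = 0.458 in limma), and the exact permutation test gave p = 0.33, its smallest possible value. The difference was 0.03 without WT2 and 0.17 without WT1, so its size depended on which WT animal was used.

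The nearest profiles to that of Hcn2 were those of Susd4, a complement-regulator family gene, Rgl1, a Ral guanine nucleotide exchange factor gene, and Med13l, a Mediator subunit gene, at distances of 0.017, 0.021 and 0.021 where Hcn2 varied by 0.074. Susd4 stood at 53.3 and 48.0 FPKM for WT1 and WT2 and at 54.4 and 54.8 FPKM in KO1 and KO2, with the same low value in WT2. Susd4 was chosen for this likeness, which is a description only.

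Hcn3, a subunit that responds little to cAMP, gave 2.89 and 3.17 FPKM for WT1, 3.25 and 3.15 FPKM for WT2, 2.81 and 3.14 FPKM in KO1 and 2.99 and 3.07 FPKM in KO2. The libraries of the groups overlapped through the first library of WT1, at 2.89 FPKM. The other WT libraries lay above the highest KO-labelled library, at 3.14 FPKM. Technical replicates differed by up to 11.1% of their mean. The animal means of WT1 and KO2, 3.034 and 3.032 FPKM, were almost equal, so that the groups were separated by animal only in the third decimal. The means were 3.12 ± 0.116 FPKM for WT and 3.003 ± 0.0415 FPKM in the KO-labelled animals (SD, n = 2 each). The difference of -0.04 (SE 0.07, 95% interval -0.22 to 0.14, adjusted p = 0.83 in limma) turned to 0.06 after quantile normalization.

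Hcn4, the slow, strongly cAMP-sensitive subunit known from the sinoatrial node and thalamus, had the lowest level of the 4. It gave 0.594 and 0.589 FPKM for WT1, 0.431 and 0.622 FPKM for WT2, 0.484 and 0.441 FPKM in KO1 and 0.550 and 0.529 FPKM in KO2. The lowest and the highest library both belonged to WT2, whose technical replicates differed by 36.1% of their mean and whose confidence intervals did not overlap. The means were 0.559 ± 0.0458 FPKM for WT and 0.501 ± 0.0541 FPKM in the KO-labelled animals (SD, n = 2 each), with overlapping groups. The difference of -0.06 (SE 0.09, 95% interval -0.28 to 0.17, adjusted p = 0.804 in limma) turned to 0.03 after quantile normalization and to 0.0057 when only the first technical replicate of each animal was used.

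The deposited limits lay 3.01% to 3.33% from the value for Pex5l, 4.88% to 5.15% for Hcn2, 12.7% to 17.8% for Hcn3 and 15.8% to 20.6% for Hcn4. Read as counting error with limits 2 SD to each side, these widths would come from 3612 to 4430 fragments for Pex5l, 1508 to 1681 for Hcn2, 126 to 246 for Hcn3 and 94.6 to 160 for Hcn4. For Hcn3 this reading is rough: the 246 came from the library at 2.81 FPKM and the 126 from a library at 3.17 FPKM. By these limits a single library measured Pex5l and Hcn2 more precisely than Hcn3 and Hcn4.

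In limma 0 of the 4 members passed an adjusted p of 0.05, where 0.054% of all genes tested passed (9 of 16667). At an unadjusted p under 0.05 there were also 0 of 4, against 15.5% of all genes. The animals of the groups did not overlap for 2 of the 4, Hcn2 and Hcn3, against 49.1% of all genes, a share near the background. Hcn2 was higher in the KO-labelled animals without overlap, as were 18.4% of all genes tested, and Hcn3 was lower without overlap, as were 30.7% of all genes tested. The difference was above 0 for 2 of 4 members and for 42% of all genes. The median difference of the members was 0.03 and that of all genes was -0.02. An absence of calls does not show that the levels were equal: the 95% intervals of Pex5l and Hcn2 reach up to 0.35 and 0.25.

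**Figure D3:**
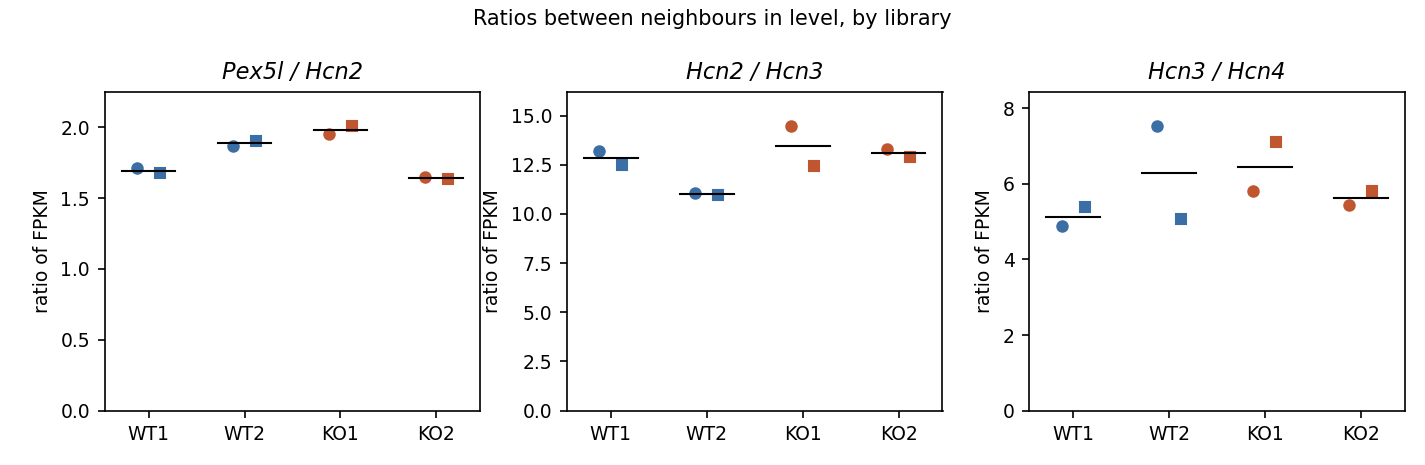
Ratios of FPKM between neighbours in level (vertical axes from 0) in each library, with circles and squares for technical replicates 1 and 2 and lines for animal means. Pex5l over Hcn2 is highest in KO1 at 1.98 and lowest in KO2 at 1.64, with WT1 and WT2 between them.

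The balance of auxiliary to pore-forming transcripts was taken as a ratio of FPKM within each library, which cancels scaling between libraries. Pex5l over Hcn2 was 1.69 and 1.89 in WT1 and WT2, 1.98 in KO1 and 1.64 in KO2. The KO-labelled animals thus held both the highest and the lowest ratio, with means of 1.79 ± 0.136 in WT and 1.81 ± 0.239 in the KO-labelled animals (SD, n = 2 each; exact permutation p = 1). Of the summed FPKM of Hcn2, Hcn3 and Hcn4, Hcn2 made up 91.5% and 90.4% in WT and 92.1% and 91.7% in the KO-labelled animals. Hcn3 made up 7.13% and 8.20% in WT and 6.88% and 7.01% in the KO-labelled animals. Hcn4 made up 1.39% and 1.35% in WT and 1.07% and 1.25% in the KO-labelled animals. For each of these 3 shares the animals of the groups did not overlap and the exact permutation test gave p = 0.33, its smallest possible value, with 3 shares that sum to 100% and are therefore not independent. The libraries of the groups overlapped for each share, and by animal 49.1% of all genes did not overlap either.

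**Figure D4:**
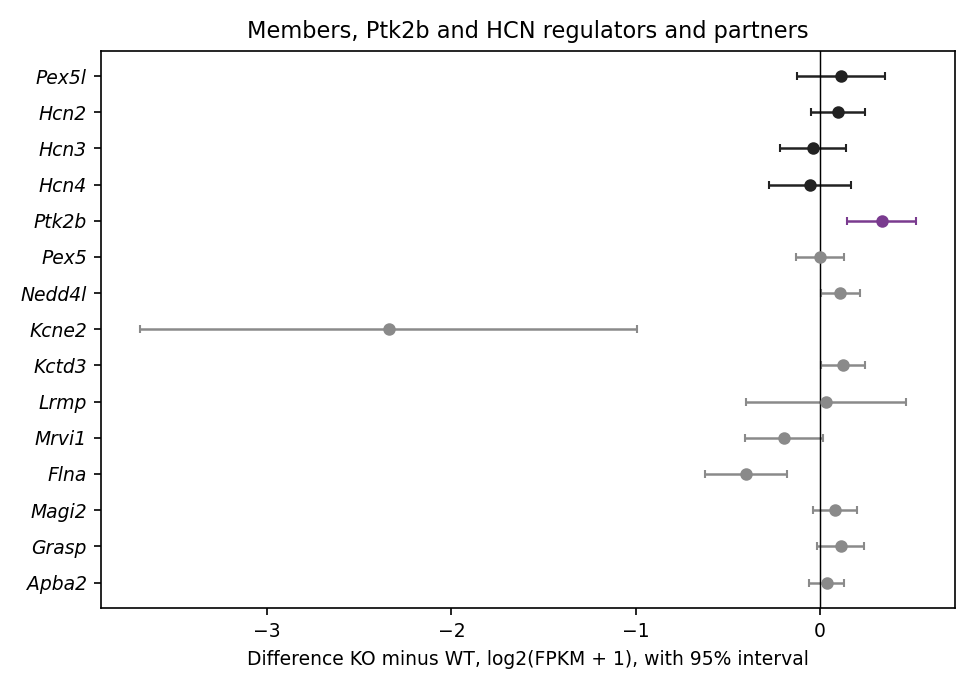
Difference of the KO-labelled animals minus WT on the log2(FPKM + 1) scale with 95% intervals from limma, not adjusted for the number of genes, for the 4 members (black), Ptk2b (purple) and the 10 tested genes of the list of HCN regulators and partners, Pex5 included (grey). The intervals of all 4 members include 0, and Kcne2 lies farthest from 0 at -2.34.

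A list of other HCN regulators and partners, with Pex5 included only as a relative of TRIP8b, held 14 symbols. These matched 11 genes in the tables and 10 were tested. Here 0 passed the adjusted threshold in limma and 4 of 10 had an unadjusted p under 0.05, against 15.5% of all genes. The difference was above 0 for 6 of 10, against 42% of all genes, or 7 of 10 after median-of-ratios scaling or quantile normalization, with a median of 0.04 against -0.02 for all genes. Groups did not overlap for 8 of 10, against 49.1% of all genes; the list was chosen with earlier results known.

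Kcne2, the MiRP1 accessory subunit that can assemble with HCN and other channels and is also abundant in choroid plexus epithelium, stood far apart. Its libraries gave 14.1 and 13.4 FPKM for WT1, 21.1 and 21.2 FPKM for WT2, 1.24 and 0.952 FPKM in KO1 and 5.19 and 4.96 FPKM in KO2. Both WT animals were above both animals labelled KO. Technical replicates lay close together except in KO1, where 1.24 and 0.952 FPKM were farther apart for their level. The means of 17.5 ± 5.25 and 3.08 ± 2.81 FPKM (SD, n = 2 each) gave a difference of -2.34 (SE 0.52, adjusted p = 0.170 in limma), which did not pass. The order of the animals, WT2, WT1, KO2, KO1, was also that of the summed choroid plexus markers at 7498, 4242, 1236 and 288 FPKM. Ttr, the transthyretin gene on that list, stood at 179 FPKM in its lowest and 6352 FPKM in its highest library. The part of choroid plexus tissue in the level of Kcne2 was not tested.

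**Figure D5:**
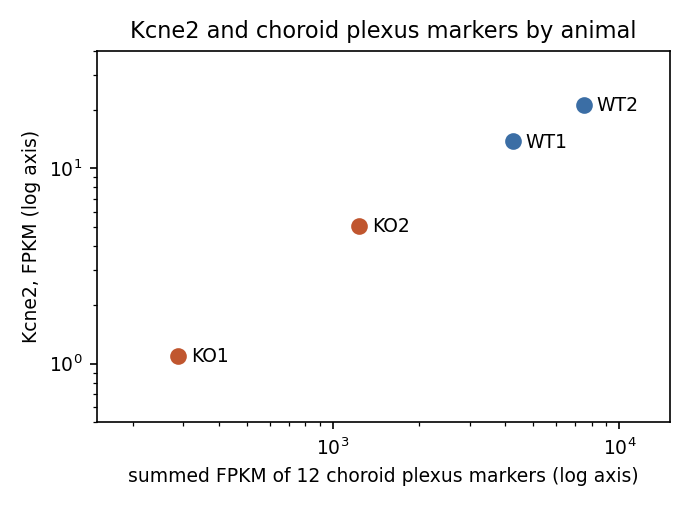
Kcne2 FPKM against the summed FPKM of 12 choroid plexus markers, 1 point per animal, both axes logarithmic. KO1 is lowest on both axes (1.10 FPKM of Kcne2) and WT2 highest (21.2 FPKM of Kcne2).

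The remaining partners differed by less. Flna, the actin cross-linker filamin A, a known HCN channel partner, stood at 21.7 and 20.5 FPKM for WT and at 14.4 and 17.1 FPKM in the KO-labelled animals (difference -0.40, SE 0.09, adjusted p = 0.158 in limma). Nedd4l, a ubiquitin ligase, stood at 32.1 and 31.7 FPKM for WT and 35.2 and 33.9 FPKM in the KO-labelled animals (difference 0.11, SE 0.04). Kctd3, a partner of the Hcn3 protein, stood at 24.9 and 26.5 FPKM for WT and 28.1 and 28.2 FPKM in the KO-labelled animals (difference 0.13, SE 0.05). These 3 genes and Kcne2 are the ones with an unadjusted p under 0.05.

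Among scaffolds, Apba2 stood at 79.5 ± 0.648 and 81.6 ± 1.68 FPKM, Magi2 at 24.6 ± 0.980 and 26.0 ± 0.0181 FPKM and Grasp at 23.9 ± 0.544 and 25.9 ± 1.17 FPKM (WT first, SD, n = 2 each). Pex5, the peroxisomal import receptor and relative of TRIP8b, stood at 13.1 ± 0.463 and 13.1 ± 0.0712 FPKM. Against this, the level of Pex5l was higher per length in every library. Lrmp, which modulates the Hcn4 channel, stood at 0.989 ± 0.439 and 1.02 ± 0.132 FPKM, and its relative Mrvi1 at 0.541 ± 0.00287 and 0.347 ± 0.0290 FPKM. Cav3, a muscle caveolin, was below the minimum, at 0.289 FPKM for WT and 0.194 FPKM in the KO-labelled animals.

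The HCN current is increased by cAMP, so genes of cAMP synthesis and breakdown were read from a list of 24, all tested. In limma 0 passed and 3 had an unadjusted p under 0.05, 1 with the higher mean in the KO-labelled animals and 2 with the lower, against 15.5% of all genes. The median difference was 0.02 and 13 of 24 lay above 0, against 42% of all genes, a count of 16 after median-of-ratios scaling and 15 after quantile normalization. Adcy1, a calmodulin-stimulated adenylyl cyclase of hippocampal neurons, stood at 88.3 and 72.3 FPKM for WT and 109 and 92.5 FPKM in the KO-labelled animals (difference 0.33, SE 0.12). Adcy6, a calcium-inhibited cyclase, stood at 10.4 and 10.8 FPKM for WT and 7.96 and 8.97 FPKM in the KO-labelled animals (difference -0.29, SE 0.07). Gnai2, an inhibitory G protein subunit gene, had a difference of -0.13 (SE 0.04), and Pde8b, a cAMP phosphodiesterase gene, one of 0.12 (SE 0.06).

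Relatives of the HCN genes, the Kcnh potassium channels with a cyclic nucleotide-binding homology domain and the cyclic nucleotide-gated channels with a true binding domain, formed a list of 14, of which 6 were tested. In limma 0 of 6 passed and 1 of 6 had an unadjusted p under 0.05, against 15.5% of all genes: Kcnh2, the ERG potassium channel. Its libraries gave 11.5, 10.9, 11.3 and 9.57 FPKM for WT and 7.99, 7.52, 7.68 and 8.25 FPKM in the KO-labelled animals, with no overlap. The difference was -0.41 (SE 0.06, adjusted p = 0.0996 in limma), and it was -0.38 after median-of-ratios scaling and -0.36 after quantile normalization. Kcnh7 stood at 3.92 ± 0.122 and 4.84 ± 1.19 FPKM and Kcnh5 at 1.13 ± 0.107 and 1.35 ± 0.133 FPKM (WT first, SD, n = 2 each). Kcnh1 stood at 8.47 ± 0.508 and 8.26 ± 0.260 FPKM. Hcn2, at 38.4 FPKM, was above every gene of this list, whose highest member stood at 21.3 FPKM, and Hcn4, at 0.530 FPKM, was below all 6 in mean level.

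Other currents that act near the resting potential with Ih were read from 19 genes of T-type calcium, M-type, leak, inward rectifier and A-type channels. In limma 0 passed and 5 of 19 had an unadjusted p under 0.05, all 5 with the higher mean in the KO-labelled animals. The median difference was 0.11 and 12 of 19 lay above 0, against 42% of all genes, 16 after median-of-ratios scaling and 15 after quantile normalization. Cacna1i, a T-type calcium channel gene, stood at 8.70 ± 0.397 and 10.1 ± 0.277 FPKM, and Kcnq5, an M-type channel gene, at 11.6 ± 0.425 and 13.1 ± 0.417 FPKM (WT first, SD, n = 2 each). The inward rectifier genes Kcnj4 and Kcnj2 stood at 27.7 ± 0.856 and 32.1 ± 2.53 FPKM and at 1.68 ± 0.309 and 2.34 ± 0.118 FPKM. Of all genes tested 15.5% had an unadjusted p under 0.05, and markers of choroid plexus and of blood had lower summed levels in these animals; their part in these values was not tested.

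Thalamus and habenula markers were read because Hcn4 and Hcn2 are strongly expressed there and tissue from these regions could be carried along. Of 14 listed genes 11 were tested, 4 with a difference above 0 and 7 below, a split of 7 and 4 after quantile normalization. In limma 0 passed and 1 of 11 had an unadjusted p under 0.05, against 15.5% of all genes. Summed levels were 80.6 and 66.4 FPKM for WT and 54.6 and 60.0 FPKM in the KO-labelled animals. This gap rested on Zic1, at 27.8 and 19.6 FPKM for WT against 10.2 and 15.6 FPKM, and Prkcd, at 23.0 and 15.02 FPKM for WT against 12.8 and 14.2 FPKM. Without both, the sums were 29.8 and 31.7 FPKM for WT and 31.6 and 30.2 FPKM in the KO-labelled animals. Of the habenular markers, Tac2 stood at 3.43 to 4.49 FPKM and Gpr151 at 0.412 to 0.598 FPKM. Chrnb4 stood at 0.338 and 0.411 FPKM for WT and 0.0347 and 0.0804 FPKM in the KO-labelled animals, and Pou4f1 was at or below 0.0426 FPKM. Gbx2 was listed at 0 in WT2. The part of such tissue in the level of Hcn4 was not tested.

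The profiles nearest to that of Hcn3 were those of Pkn2, a protein kinase gene, Fundc1, a mitophagy receptor gene, and Prdx2, a peroxiredoxin gene, at distances of 0.018, 0.018 and 0.024 where Hcn3 varied by 0.050. Those nearest to Hcn4 were Hmces, Tmem185a and Coq10a, at 0.024, 0.024 and 0.025 where Hcn4 varied by 0.064. None of these 6 genes passed the threshold in limma, with differences of -0.07 to -0.03. They were chosen for likeness to Hcn3 and Hcn4 over the same libraries, so differences near those of these members follow from the choice.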

How the data were processed

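Hippocampal RNA, isolated with Trizol per the labels' protocols, was sequenced in 8 libraries of 4 animals. For each library the authors deposited 1 table of FPKM per gene with confidence limits and a status, per the file headers. Bowtie 1, HISAT and mm10 appear, without a role, in the submitters' processing notes. How the FPKM were computed, and whether libraries were scaled to each other, is not given in the sources used here.

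Rows that repeat a gene identifier (53 per table) were summed and values with another status than OK were treated as missing. Technical replicates were averaged per animal. The 16667 genes that reached 0.5 FPKM in 2 or more animals were tested as log2(FPKM + 1), KO minus WT, with limma 3.58.1 (trended variance) in R 4.3.3 and Benjamini-Hochberg adjustment over all of them, threshold 0.05. The pseudocount of 1 understates differences of low genes such as Hcn4. Single values were compared by exact two-sided permutation over animals. No counts were among the values used, so no count test was run, and depth was read only from the confidence limits, taken as counting error. The procedure was tested on simulated data.

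Members and gene lists were chosen with earlier results of these data known. The genes named are the 4 members, Ptk2b, all genes of the list of HCN regulators, up to 4 of each other pathway list with the smallest p, and the 3 genes of nearest profile to each member. Ttr, all single markers and the overlapping genes were named after their values were seen. Sequences come from GENCODE M21 transcripts (1 Pex5l start is not reported here), and identities from global alignment in Biopython 1.88. Marker lists for striatum, astrocytes, microglia, oligodendrocytes and GABAergic interneurons were read as well. Alternatives were another pseudocount and other minimums, 2 other scalings, single technical replicates, fits on the 8 libraries, a block for the animal number, and leaving out each animal.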

Additional observations from a re-analysis of the deposited data

How the results depend on the processing

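None of the 4 members passed the threshold under any of the 15 alternatives run, except that Hcn4 was not tested at a minimum of 1 FPKM. Hcn2 and Pex5l kept a difference above 0 in each, apart from Pex5l without KO1 at -0.0220. Quantile normalization turned Hcn3 to 0.0574 and Hcn4 to 0.0283, and the first technical replicates alone turned Hcn4 to 0.0057. With 1 animal left out the differences were 0.03 to 0.17 for Hcn2, -0.07 to -0.01 for Hcn3, -0.09 to -0.02 for Hcn4, -0.02 to 0.25 for Pex5l and 0.24 to 0.43 for Ptk2b. A group of 1 animal was then given the spread of the other group. Ptk2b passed only with libraries as units, at 0.33 (adjusted p = 0.00634 in limma), a fit in which 1085 genes were called. The count of called genes, 9, was 14 with a pseudocount of 0.1, 0 with no filter on low values (3741 at an unadjusted p under 0.05), 20 without the first library of KO1 and 0 to 128 with 1 animal left out. It was 0 without WT1 (1631 at an unadjusted p under 0.05), 0 without WT2 (1327), 1 without KO1 and 128 without KO2, all in limma. With the animal number as a replicate block it was 184, and no member's call changed (Hcn2 0.10, Hcn3 -0.04, Hcn4 -0.06, Pex5l 0.11). Labels do not say that equal numbers share a batch, and the deviations of equally numbered animals correlated at 0.11 across genes. The deposited limits were relatively widest for Hcn3 and Hcn4, with 2 animals per group limiting all.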

Other observations

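Marker lists of other cell classes gave these values beside the members. Of 10 striatum markers 5 had a difference above 0 and 5 below (6 and 4 after quantile normalization), with a median of -0.04. Their sum was 99.8 and 95.7 FPKM in WT and 66.9 and 66.9 FPKM in the KO-labelled animals, a gap that rested on Ppp1r1b and Penk: without them it was 23.9 and 21.8 FPKM in WT and 21.7 and 21.2 FPKM in the KO-labelled animals. In this list 1 marker passed in limma, Ppp1r1b, the DARPP-32 gene, which was lower in the KO-labelled animals at 28.01 and 28.3 FPKM against 49.5 and 52.3 FPKM. Ppp1r1b, Penk, Drd2 and Tac1 had an unadjusted p under 0.05 in limma, 4 of 10 against 15.5% of all genes. All 4 were lower in the KO-labelled animals. Groups did not overlap for 6 of 10 striatum markers, 5 lower and 1 higher, against 49.1% of all genes. Microglia markers summed to 163 and 153 FPKM in WT, 178 FPKM in KO1 and 158 FPKM in KO2, highest in the animal in which Pex5l was highest. Astrocyte markers summed to 699 and 656 FPKM in WT, 732 FPKM in KO1 and 694 FPKM in KO2, likewise highest in KO1, with 6 of 8 genes above KO2. This rested on Slc1a2 and Gfap: without both, sums were 341 and 332 FPKM in WT, 341 FPKM in KO1 and 334 FPKM in KO2. Among oligodendrocyte, microglia, astrocyte and GABAergic interneuron markers 0 passed in limma. Their unadjusted p in limma was under 0.05 in 1 of 12, 1 of 8, 2 of 8 and 4 of 14 rows, respectively. Across all genes this share was 15.5%.

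Hcn4 has 1 annotated transcript, and the fragment number implied by its confidence limits was within 0.05 of a whole number in 5 of 8 libraries, at 160, 136, 153, 140 and 140. The same held for 1 of 8 libraries for Hcn3, 1 of 8 for Pex5l and 0 of 8 for Hcn2, which have 4, 12 and 2 annotated transcripts. How the limits were computed is not given in the sources used here.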
